A study of Homo sapiens with 8 samples.

Results

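The 9 genes of the MHC class I antigen presentation pathway examined here (HLA-B, HLA-C, HLA-E, HLA-F, B2M, TAP1, TAP2, PSMB8 and PSMB9) were followed across all conditions in the human colorectal cancer cell line DLD1. They were read by the non-control probes that carry one of these gene names on the array, which gave 14 probes for 9 genes, of 50599 probes on the array in all. Of these 14 probes, 13 passed the detection call on each of the 8 arrays. The remaining one, the second TAP2 probe A_23_P368067, passed it on no array and was not tested. DLD1 cells took up a control siRNA, siCONT, or one of the siRNAs that target UHRF1, siUHRF1-1 and siUHRF1-2, and were given, 48 h later, 300 nM trichostatin A (TSA) or ethanol as mock for 24 h. This gave 4 groups of 2 arrays, namely siCONT with mock, siUHRF1 with mock, siCONT with TSA and siUHRF1 with TSA, in which the siUHRF1 arrays carry different siRNAs. UHRF1 directs the maintenance DNA methyltransferase to newly replicated DNA, and TSA inhibits histone deacetylases. All cells are of a single established line, every culture was transfected, and depletion was transient. All of the genes lie on chromosome 6 except B2M, which lies on chromosome 15.

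MHC class I molecules show peptides from the cell interior to CD8+ T cells. Proteasomes cut cytosolic proteins into peptides, and in cells that see interferon the catalytic subunits PSMB8, PSMB9 and PSMB10 replace PSMB5, PSMB6 and PSMB7 to form the immunoproteasome. The transporter made of TAP1 and TAP2 moves peptides into the endoplasmic reticulum, where they are loaded onto a heavy chain (such as HLA-B, HLA-C and the less variable HLA-E and HLA-F) bound to the light chain, beta-2-microglobulin (B2M). Colon cancers often lower this machinery, and interferon signalling through IRF1 and NLRC5 is known to raise it.

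The values of the heavy chains turn on which stretch of a transcript a probe reads, so the probe sequences are given first. The next 3 lines show the same 30 bases of the 3′ end, at chr6:31321671-31321700 of hg19 by the array's own annotation, as read by both 3′ probes named HLA-B and by one of the probes named HLA-C. The capital marks the only base at which they differ.
HLA-B A_33_P3424800: gtcaattcctggaaGttgagagagcaaata
HLA-B A_33_P3379947: gtcaattcctggaaTttgagagagcaaata
HLA-C A_33_P3424803: gtcaattcctggaaGttgagagagcaaata
Within their overlap of 50 bases, the HLA-B probes differed at 1 position (G37T, counted from the 5′ end of A_33_P3424800). The probe named HLA-C shared its 41 overlapping bases with A_33_P3424800 without a mismatch, and differed from A_33_P3379947 at 1 of 51 positions (T27G, counted from the 5′ end of A_33_P3379947). The array annotation places this HLA-C probe at the HLA-B locus (chr6:31321644-31321703), so its values cannot be assigned to HLA-C alone. The other HLA-C probe, A_33_P3330109, lies at chr6:31236617-31236676 and shared no run longer than 10 bases with any other HLA probe of the set. No probe of the array outside the set shared a run of 20 bases or more with a member probe.

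The probes that carry the main findings read coding sequence and are printed whole, with capitals left out because no part is singled out.
HLA-B A_33_P3399208: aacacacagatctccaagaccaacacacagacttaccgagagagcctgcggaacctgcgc
HLA-F A_33_P3379967: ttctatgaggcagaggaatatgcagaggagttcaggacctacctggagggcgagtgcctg
PSMB8 A_23_P250629: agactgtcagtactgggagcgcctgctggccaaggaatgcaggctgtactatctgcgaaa
PSMB9 A_23_P111000: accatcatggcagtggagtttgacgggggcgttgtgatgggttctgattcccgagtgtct
The third HLA-B probe, A_33_P3399208, reads coding sequence of the peptide-binding part of the heavy chain, which varies between alleles, and the array files give no genome position for it. Its longest run in common with another HLA probe of the set was 8 bases. The HLA-F probe lies at chr6:29692114-29692173, the PSMB8 probe in chr6:32810023-32810490, a span longer than the probe itself, and the PSMB9 probe at chr6:32823918-32823977 (hg19).

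The arrays were checked before the pathway was described. With its brighter probe, siUHRF1-1 and siUHRF1-2 left 31.9% and 24.8% of the UHRF1 signal under mock and 16.7% and 11.1% under TSA, relative to the siCONT mean of the same agent. In siCONT cells UHRF1 was itself lower with TSA than with mock, by 0.97 log2 units with this probe and 1.13 with the dimmer probe. All 10 colon epithelium markers examined (EPCAM, keratins, CDH1, CDH17, VIL1, CDX1 and CDX2 among them) were above background on all 8 arrays, as befits a colorectal line. Of 10 leukocyte markers on the array, 5 were above background on none, PTPRC, the pan-leukocyte marker, among them, and CD4, CD8A, CD14 and CD68 were above it on all 8. The summed level of the leukocyte markers lay between 11.9 and 13 times the 75th percentile signal on siCONT mock arrays, 10.8 and 11.6 on siUHRF1 mock, 9.02 and 9.40 on siCONT TSA, and 9.73 and 11.8 on siUHRF1 TSA arrays. Of 8 fibroblast and endothelium markers 4 were above background on none, and the summed level lay between 0.287 and 0.319 on siCONT mock, 0.589 and 0.643 on siUHRF1 mock, 1.30 and 1.43 on siCONT TSA, and 2.21 and 2.60 on siUHRF1 TSA arrays, with COL1A1 and VWF called higher with TSA. COL1A1 and VWF were not well above background on siCONT mock arrays, so in comparisons with that group the filter fixed their direction. The part of these markers in the results was not tested. The siCONT arrays of an agent differed by an SD of 0.16 log2 units over 19898 probes in both agents, against 0.49 and 0.42 between the siRNAs under mock and under TSA. Nothing states that the siCONT arrays came from separate cultures, so each siCONT pair carries no SD, the test was run with its arrays as separate and as 1 sample, and p-values measure the spread between these arrays, which may be technical. All arrays were on 1 slide, with mock arrays in one row and TSA arrays in the other, so that TSA and slide row cannot be told apart.

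Expression levels are log2 signals after the 75th percentile of each array was set to 0. A difference of 1 is 2-fold, and levels of different probes are not compared with each other. A probe was called when limma gave a Benjamini-Hochberg adjusted p under 0.05 over all probes tested and the change was at least 2-fold. RNA came from whole cultures, in which fewer cells of a kind and less RNA per cell cannot be told apart.

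The changes that passed the test, in a fit that does not pair arrays by siRNA, concerned PSMB8 and 1 of the 3 HLA-B probes. Under mock, UHRF1 depletion left 0 of 13 member probes called, where 4.11% of all 22391 tested probes were called (4 member probes had an unadjusted p under 0.05 in limma). With TSA in siCONT cells, 2 of 13 were called against 18.6% of all probes, PSMB8 lower and HLA-B A_33_P3399208 higher. The same probes were called when depletion and TSA were combined and set against siCONT mock (2 of 13, 25.6% of all probes) and with TSA in UHRF1-depleted cells (2 of 13, 20.7% of all probes). Counts this small over 13 probes do not set the members apart from all probes. After normexp correction, for example, 3 of 13 member probes were called with TSA in siCONT cells, against 1708 of 23239 probes in all. UHRF1 depletion under TSA left 0 of 13 called (8.26% of all probes, 1 member probe at an unadjusted p under 0.05), and the interaction, the amount by which TSA altered the effect of depletion, 0 of 13 (4.89% of all probes, 2 at an unadjusted p under 0.05). The comparisons with a common control share its arrays and are not independent.

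With the siCONT arrays of an agent counted as 1 sample, the calls against siCONT became fewer. No member probe was then called for UHRF1 depletion under mock (0.0223% of all probes), for TSA in siCONT cells (1.56%) or for UHRF1 depletion under TSA (0.692%). PSMB8 and HLA-B A_33_P3399208 remained called with depletion plus TSA (15.4% of all probes) and with TSA in UHRF1-depleted cells (17.6% of all probes).

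**Figure D1:**
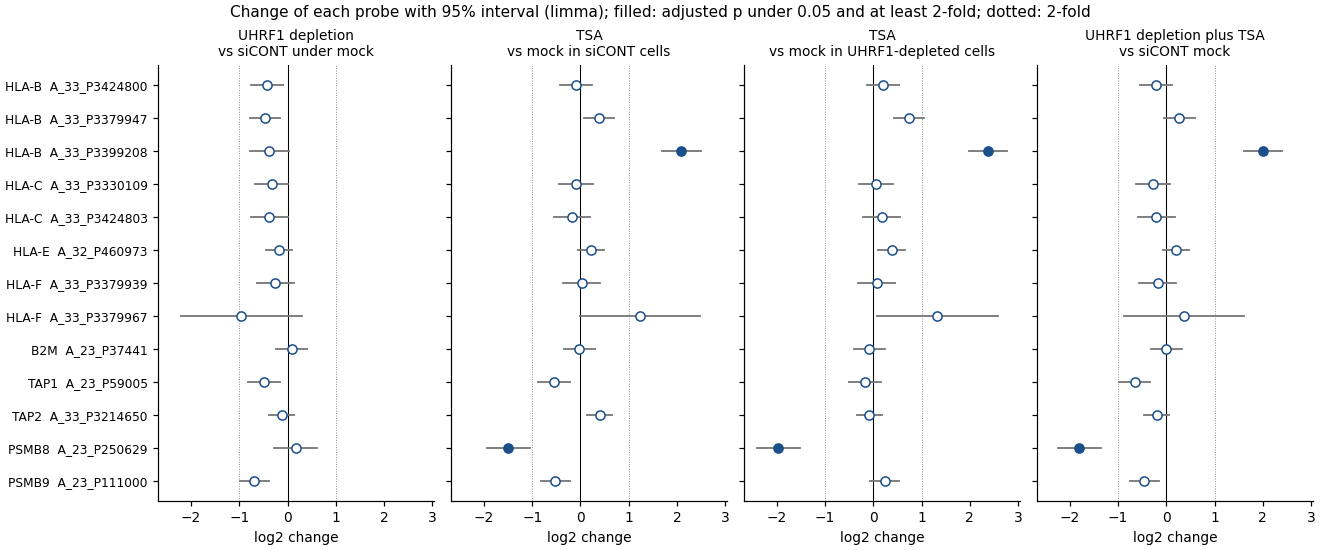
Log2 change of each of the 13 tested member probes (rows) in 4 comparisons (panels), with points for the limma estimate, horizontal lines for its 95% interval, filled points for called probes and dotted lines at 2-fold. In the panels with TSA only PSMB8, between −1.49 and −1.97, and HLA-B A_33_P3399208, between 2.01 and 2.38, are filled, and no point is filled under UHRF1 depletion with mock.

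Medians place the members beside all probes. Over the 13 member probes the median change was −0.37 with UHRF1 depletion under mock, −0.02 with TSA in siCONT cells and −0.20 with both, where the medians of all tested probes were −0.10, −0.11 and −0.14. Under mock 11 of 13 member probes had both siUHRF1 arrays below both siCONT arrays, a pattern that 39.3% of all tested probes showed. The 11 probes covered HLA-B, HLA-C, HLA-E, HLA-F, TAP1, TAP2 and PSMB9, while PSMB8 was higher on both siUHRF1 arrays and B2M overlapped. HLA-B, HLA-C and HLA-F enter this count by several probes each. The 3′ probes of HLA-B also overlap HLA-C A_33_P3424803 in sequence, so the probes are not independent. With the brightest probe of each gene, the median change over the 9 genes was −0.25. The number of member probes with a lower mean was 11 with median scaling, normexp correction and the percentile over detected probes, and 10 with quantile normalization. Median scaling and the detected-probe percentile move all probes by a common amount, so they check this count only weakly. The sign of the median with TSA changed with the scaling. It was 0.21 in siCONT cells and 0.03 with both under quantile normalization, and −0.07 and −0.60 under median scaling. Median scaling also took the median of all probes with depletion plus TSA to −0.54. With TSA in siCONT cells 6 member probes had both arrays above the mock arrays and 6 had both below (37.8% and 49.8% of all probes). In UHRF1-depleted cells 6 of 13 had both TSA arrays above both mock arrays, against 30.3% of all probes. Of the rest, 2 had both below and 5 overlapped. The shares of all probes with these patterns were not computed, so these counts cannot be placed. The sign was not stable there either. The median over member probes was 0.17 as reported and −0.22 under median scaling, where 10 of 13 had a lower mean. The median of all probes moved alike, from −0.04 to −0.43, so this change of sign is not particular to the members.

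**Figure D2:**
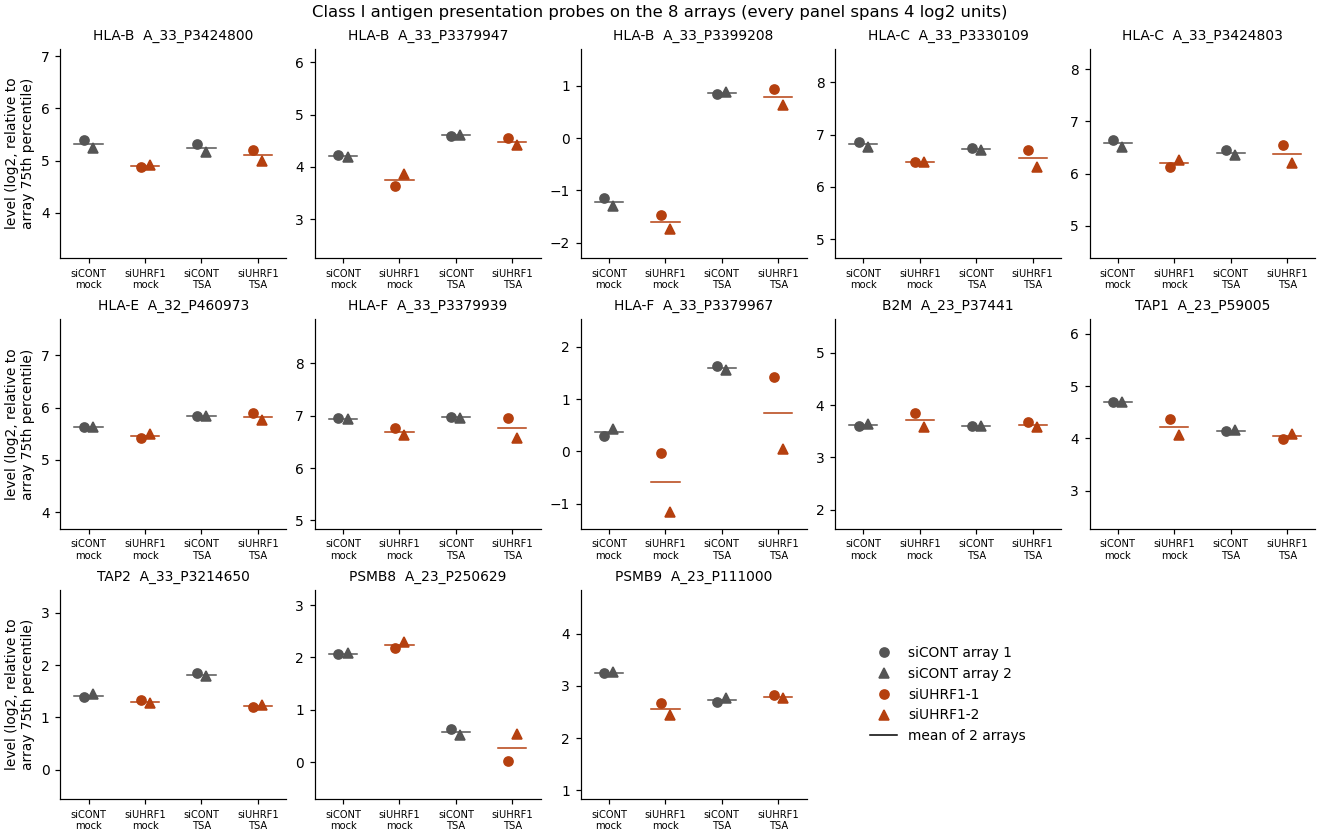
Level of each tested member probe on every array, as log2 signal with each array's 75th percentile at 0, with grey for siCONT, red for siUHRF1, circles for the first and triangles for the second array or siRNA, and lines for the mean of the 2 arrays. PSMB8 drops from between 2.06 and 2.29 on the mock arrays to between 0.01 and 0.64 on the TSA arrays, HLA-B A_33_P3399208 goes the other way, and the siRNAs lie far apart for HLA-F A_33_P3379967.

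Peptide generation showed the largest decrease in the pathway. PSMB8, the immunoproteasome subunit that takes the place of PSMB5, had levels of 2.06 and 2.08 on the siCONT mock arrays, 2.18 and 2.29 with siUHRF1-1 and siUHRF1-2 under mock, 0.64 and 0.52 on the siCONT TSA arrays, and 0.01 and 0.53 with the siRNAs under TSA. All 4 TSA arrays lay below all 4 mock arrays. With TSA PSMB8 fell by 1.49 in siCONT cells (SE 0.19, 2.81-fold lower, adjusted p 0.00240 in limma) and by 1.97 in UHRF1-depleted cells (SE 0.19, 3.90-fold lower, adjusted p 0.000803). Against siCONT with mock, depletion plus TSA gave a mean of 0.27 ± 0.37 (SD, n = 2 siRNAs) and a change of −1.80 (SE 0.19, adjusted p 0.000803). With the siCONT arrays counted as 1 sample these adjusted p values were 0.120, 0.0103 and 0.0255, respectively. UHRF1 depletion alone gave a change of 0.17 under mock (95% interval −0.29 to 0.62) and −0.31 under TSA (−0.76 to 0.14), neither of which was called.

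PSMB9, the subunit that takes the place of PSMB6, followed another course. Its levels were 3.25 and 3.26 on the siCONT mock arrays, 2.67 and 2.45 with siUHRF1-1 and siUHRF1-2 under mock, 2.70 and 2.77 on the siCONT TSA arrays, and 2.82 and 2.77 with the siRNAs under TSA. The siCONT mock arrays were the highest of the 8, and the other groups lay close together. The change with UHRF1 depletion under mock was −0.69 (SE 0.12, adjusted p 0.0300 in limma), with TSA in siCONT cells −0.52 (SE 0.12, adjusted p 0.0200) and with both −0.46 (SE 0.12, adjusted p 0.0247). All of these were below 2-fold and so were not called, and with siCONT as 1 sample the adjusted p values were 0.545, 0.404 and 0.299. The UHRF1 effect under TSA exceeded that under mock by 0.75 (SE 0.17, adjusted p 0.0585).

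The other proteasome genes were set beside these subunits. PSMB10, the immunoproteasome subunit that takes the place of PSMB7, had levels of 4.62 and 4.59 on siCONT mock, 4.66 and 5.42 with the siRNAs under mock, 2.87 and 2.91 on siCONT TSA, and 2.66 and 2.94 with the siRNAs under TSA. It fell by 1.71 with TSA in siCONT cells and by 1.80 with depletion plus TSA, so that its TSA arrays were all below its mock arrays, as for PSMB8. The constitutive subunits were not called in any of these comparisons. With TSA in siCONT cells PSMB5 changed by −0.13, PSMB6 by −0.79 and PSMB7 by −0.09, and with depletion plus TSA the changes were −0.52, −0.87 and 0.18. Over the 19 proteasome core, activator and assembly genes examined, PSMB10 was the only gene called in either comparison, and none was called with UHRF1 depletion under mock. Their median change was −0.27 under depletion, −0.33 with TSA and −0.44 with both. Of these, the call of PSMB10 with depletion plus TSA was the one that held with siCONT as 1 sample.

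**Figure D3:**
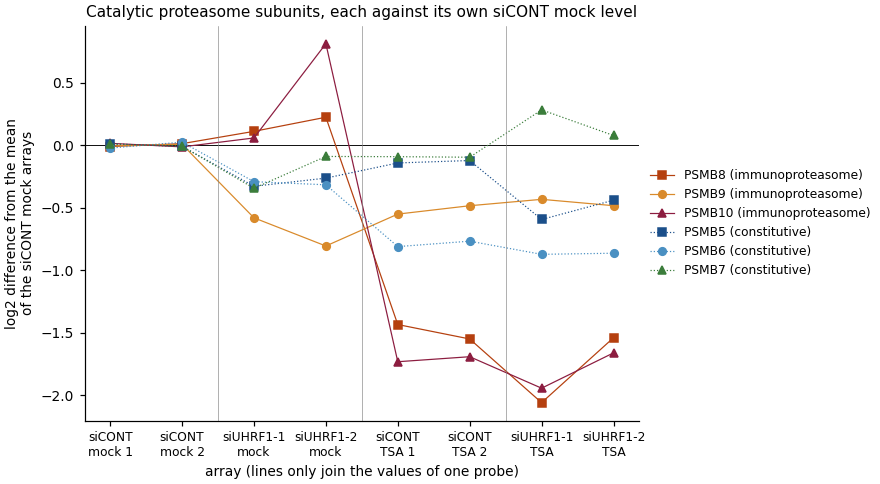
Difference of each array from the mean of the siCONT mock arrays, in log2 units, for the immunoproteasome subunits PSMB8, PSMB9 and PSMB10 (solid) and the constitutive subunits PSMB5, PSMB6 and PSMB7 (dotted), 1 probe a gene. PSMB8 and PSMB10 lie more than 1 unit below 0 on all 4 TSA arrays, while PSMB9 lies between −0.81 and −0.43 on the siUHRF1 and TSA arrays.

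Neither peptide transporter gene was called in any comparison, except that TAP1 was called with depletion plus TSA, at −1.06, under median scaling. TAP1 had levels of 4.69 and 4.70 on siCONT mock, 4.37 and 4.07 with siUHRF1-1 and siUHRF1-2 under mock, 4.14 and 4.16 on siCONT TSA, and 4.0 and 4.09 with the siRNAs under TSA. The siCONT mock arrays were again the highest and did not overlap any other group. The change of TAP1 was −0.48 with depletion under mock (SE 0.14, adjusted p 0.0781 in limma), −0.55 with TSA in siCONT cells (adjusted p 0.0222) and −0.66 with both (adjusted p 0.00949), and with siCONT as 1 sample the adjusted p values were 0.651, 0.398 and 0.177.

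TAP2, the partner of TAP1 in the transporter, differed most between the siRNA groups under TSA. The levels of its detected probe A_33_P3214650 were 1.39 and 1.44 on siCONT mock, 1.33 and 1.27 with the siRNAs under mock, 1.84 and 1.79 on siCONT TSA, and 1.2 and 1.23 with the siRNAs under TSA. The siCONT TSA arrays were the highest and the siUHRF1 TSA arrays the lowest. The change was 0.40 with TSA in siCONT cells (SE 0.11, adjusted p 0.0288 in limma) and −0.60 with UHRF1 depletion under TSA (SE 0.11, adjusted p 0.0182, or 0.391 with siCONT as 1 sample). Neither reached 2-fold.

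B2M, the light chain shared by all class I molecules, had the narrowest range of the member probes. Its probe is spotted 10 times on the array, and the coefficient of variation over its 9 or 10 usable spots was between 1.64% and 3.29%. Levels were 3.61 and 3.64 on siCONT mock, 3.84 and 3.58 with the siRNAs under mock, 3.61 and 3.59 on siCONT TSA, and 3.67 and 3.58 with the siRNAs under TSA. Both siCONT TSA arrays lay just below both siCONT mock arrays, the siUHRF1 groups overlapped every other group, and the siUHRF1-1 mock array was the highest. The range over the 6 samples, with each siCONT pair averaged, was 0.27, wider than that of only 1.04% of the 19898 probes above background on all arrays. The change with TSA in siCONT cells was −0.02 (95% interval −0.34 to 0.29) and with depletion plus TSA 0.00 (−0.32 to 0.32).

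Among the heavy chains, HLA-B gave different answers by probe. The coding probe A_33_P3399208 had levels of −1.14 and −1.31 on siCONT mock, −1.46 and −1.73 with siUHRF1-1 and siUHRF1-2 under mock, 0.85 and 0.88 on siCONT TSA, and 0.94 and 0.63 with the siRNAs under TSA. All TSA arrays were above all mock arrays. This probe rose with TSA by 2.09 in siCONT cells (SE 0.16, 4.26-fold, adjusted p 0.000647 in limma) and by 2.38 in UHRF1-depleted cells (SE 0.16, 5.21-fold, adjusted p 0.000300). With depletion plus TSA against siCONT with mock it was 2.01 higher (SE 0.16, 4.02-fold, adjusted p 0.000392). The adjusted p values with siCONT as 1 sample were 0.0633, 0.00529 and 0.0164.

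The 3′ probes of HLA-B were not called in any comparison. A_33_P3379947 had levels of 4.23 and 4.19 on siCONT mock, 3.62 and 3.86 with the siRNAs under mock, 4.59 and 4.61 on siCONT TSA, and 4.55 and 4.41 with the siRNAs under TSA. A_33_P3424800 had 5.39 and 5.25, 4.87 and 4.92, 5.32 and 5.16, and 5.21 and 4.99 in the same order. The siUHRF1 mock arrays were the lowest of the 8 for both probes, and the TSA arrays lay above all mock arrays for A_33_P3379947 but not for A_33_P3424800. With TSA in siCONT cells A_33_P3379947 changed by 0.39 (SE 0.13, adjusted p 0.0549 in limma) and A_33_P3424800 by −0.08 (SE 0.14, adjusted p 0.656). In UHRF1-depleted cells these changes were 0.74 (adjusted p 0.00645, below 2-fold) and 0.21 (adjusted p 0.276). The 3 probes of this gene thus gave changes of 2.09, 0.39 and −0.08 with TSA in siCONT cells, and no test between probes was made.

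**Figure D4:**
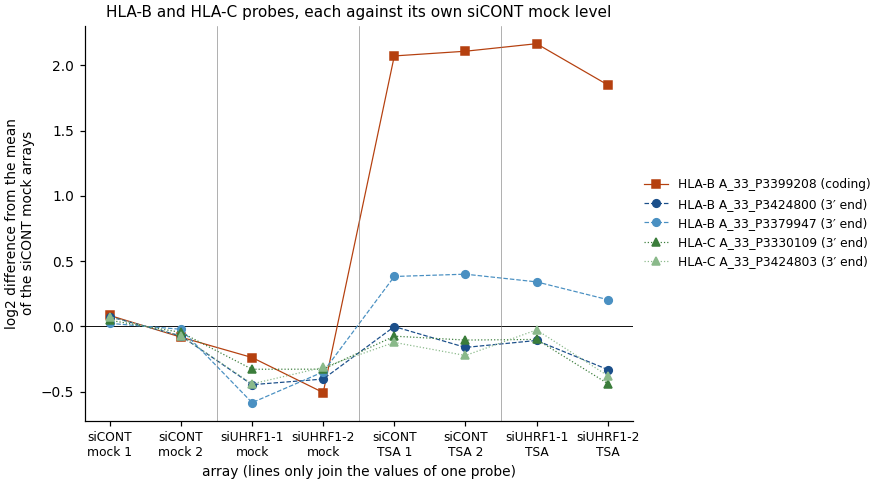
Difference of each array from the mean of the siCONT mock arrays, in log2 units, for the 3 HLA-B and 2 HLA-C probes. The coding HLA-B probe A_33_P3399208 lies between 1.85 and 2.17 on the TSA arrays, whereas the 3′ probes of both genes lie between −0.58 and 0.40 on all arrays.

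The HLA-C probes stayed within 2-fold throughout. A_33_P3330109, at the HLA-C locus, had levels of 6.86 and 6.77 on siCONT mock, 6.49 on both siUHRF1 mock arrays, 6.74 and 6.71 on siCONT TSA, and 6.71 and 6.38 with the siRNAs under TSA. The siUHRF1 mock arrays lay below the siCONT arrays of both agents, and siUHRF1-2 under TSA was the lowest. Its change was −0.33 with depletion under mock (SE 0.14, adjusted p 0.181 in limma) and −0.09 with TSA in siCONT cells (SE 0.14, adjusted p 0.640). A_33_P3424803, which overlaps the HLA-B 3′ probes, gave −0.38 and −0.17 for the same comparisons.

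HLA-E, a ligand of inhibitory receptors on natural killer cells, was not called in any comparison. Its levels were 5.63 and 5.62 on siCONT mock, 5.41 and 5.49 with the siRNAs under mock, 5.84 and 5.85 on siCONT TSA, and 5.91 and 5.76 with the siRNAs under TSA. Every TSA array was above every mock array. The change with TSA was 0.22 in siCONT cells (SE 0.11, adjusted p 0.169 in limma) and 0.38 in UHRF1-depleted cells (SE 0.11, adjusted p 0.0409), below 2-fold in both.

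The HLA-F probes gave different values, as those of HLA-B did. A_33_P3379967 had levels of 0.30 and 0.43 on siCONT mock, −0.04 and −1.15 with siUHRF1-1 and siUHRF1-2 under mock, 1.63 and 1.57 on siCONT TSA, and 1.42 and 0.05 with the siRNAs under TSA. The siUHRF1-2 array was more than 1 log2 unit below the siUHRF1-1 array with either agent. Its change with TSA was 1.23 in siCONT cells (SE 0.51, adjusted p 0.102 in limma) and 1.32 in UHRF1-depleted cells (SE 0.51, adjusted p 0.0875), so neither was called despite exceeding 2-fold. The fit as reported does not pair the siUHRF1 arrays by siRNA. With array or siRNA number as a block within each siRNA arm, both changes were called. The other probe, A_33_P3379939, ranged only from 6.57 to 6.98, and its change with TSA in siCONT cells was 0.02 (95% interval −0.36 to 0.41).

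The promoters of the genes with the clearest values are shown with the elements known from class I genes. Each line gives the 250 bases before the first start listed for the gene from RefSeq (GRCh38.p14), and 8 of the 9 genes have such an entry. TAP1 and PSMB8 have a second listed start, whose windows are not printed. Capitals mark matches, on either strand, to AANNGAAA (the core of an interferon-stimulated response element), TGACG (the X2 or CRE core), CCAAT (the Y box) and GGGNNTTCC (an NF-kB-like element), and matches may overlap. HLA-B and PSMB8 carried the called changes, B2M had the narrowest range, and TAP1 and PSMB9 are read in opposite directions from starts with 487 bases between them.
HLA-B, chr6:31357180-31357429, minus strand: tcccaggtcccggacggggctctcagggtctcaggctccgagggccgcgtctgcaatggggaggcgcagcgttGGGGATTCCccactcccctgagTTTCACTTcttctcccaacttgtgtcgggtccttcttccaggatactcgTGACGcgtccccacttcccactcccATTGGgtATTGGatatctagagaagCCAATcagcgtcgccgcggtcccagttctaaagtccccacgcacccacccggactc
B2M, chr15:44711267-44711516, plus strand: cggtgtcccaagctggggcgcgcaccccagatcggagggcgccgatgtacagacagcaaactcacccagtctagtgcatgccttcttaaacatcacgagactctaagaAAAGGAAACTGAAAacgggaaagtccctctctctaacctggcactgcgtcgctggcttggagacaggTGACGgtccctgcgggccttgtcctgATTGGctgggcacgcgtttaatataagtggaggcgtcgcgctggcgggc
PSMB8, chr6:32844680-32844929, minus strand: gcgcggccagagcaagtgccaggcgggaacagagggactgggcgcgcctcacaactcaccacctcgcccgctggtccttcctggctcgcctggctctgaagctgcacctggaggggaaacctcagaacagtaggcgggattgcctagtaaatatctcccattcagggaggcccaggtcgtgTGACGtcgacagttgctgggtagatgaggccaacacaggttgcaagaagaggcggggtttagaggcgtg
TAP1, chr6:32853705-32853954, minus strand: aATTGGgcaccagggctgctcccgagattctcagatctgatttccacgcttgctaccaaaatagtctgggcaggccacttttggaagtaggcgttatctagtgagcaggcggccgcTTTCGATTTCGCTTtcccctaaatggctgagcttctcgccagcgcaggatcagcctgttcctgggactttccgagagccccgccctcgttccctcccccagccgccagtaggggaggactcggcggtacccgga
PSMB9, chr6:32853942-32854191, plus strand: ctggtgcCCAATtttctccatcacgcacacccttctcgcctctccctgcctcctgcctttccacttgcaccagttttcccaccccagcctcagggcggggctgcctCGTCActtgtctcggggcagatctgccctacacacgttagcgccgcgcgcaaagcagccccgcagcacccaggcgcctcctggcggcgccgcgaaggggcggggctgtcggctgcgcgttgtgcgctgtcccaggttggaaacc
The window of HLA-B held a match to each of the 4 marked motifs, and that of B2M the first 3 of these. The GC box (GGGCGG), also sought but not marked, had no match in either. In the printed window of PSMB8 the only match was to the X2 core, and the window of its second start held an NF-kB-like match. Over the first windows of the 8 genes, the response element core was found in 6 (all but PSMB8 and PSMB9), the X2 core in 6 and the Y box in 6. The pattern GGGNNTTCC was found in HLA-B alone. Over all 35116 promoter windows of the table the shares with these motifs were, in the same order, 20.3%, 21.2%, 32.0% and 5.78%. GGGNNTTCC has a fixed spacing, so stretches of another spacing, such as gggactttcc in the TAP1 window, were not counted. The GC box was found in 4 of the 8 first windows, against 42.6% of all windows. The printed windows of TAP1 and PSMB9 overlap, and their Y box matches are the same site read on opposite strands, so it is counted for both genes. CG dinucleotides, the sites of DNA methylation, numbered between 13 and 21 in these first windows, and 11 in the second windows of TAP1 and PSMB8, against a median of 11 over all windows. DNA methylation of these windows was not analysed here. The matches are letters in a window and were not tested as binding sites.

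Genes that work beside the members were taken from lists, with the brightest probe standing for a gene. The counts of called genes in this and the following lists stand beside the shares of all probes called in either direction. These were 4.11% with depletion under mock, 18.6% with TSA in siCONT cells and 25.6% with both. No list was tested against these shares. Of 10 peptide loading and trimming genes, none was called with UHRF1 depletion under mock, 1 fell with TSA in siCONT cells and 2 fell with depletion plus TSA. ERAP2, an aminopeptidase that trims peptides in the endoplasmic reticulum, had levels of 3.12 and 3.14 on siCONT mock and 1.92 and 1.98 on siCONT TSA, a fall by 1.18, and it was 1.53 lower with both. PDIA3, a thiol oxidoreductase of the loading complex, fell by 1.0 with both. TAPBP (tapasin), which bridges the transporter and the heavy chain, was not called, with changes of −0.63 with TSA and −0.96 with both. Its probes A_23_P259580 and A_33_P3325914 changed by −0.63 and −0.61 with TSA in siCONT cells and by −0.38 and −0.87 with both, also not called. The median changes of the list were −0.09 with depletion, −0.69 with TSA and −0.84 with both, lower than the medians of all probes in the comparisons with TSA. With siCONT as 1 sample, 1 gene (ERAP2, with both agents) was called in these comparisons.

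Of the 27 known regulators of class I transcription and interferon signalling, 24 to 25 could be tested in a comparison. Called were 1 gene with depletion under mock, 2 with TSA in siCONT cells and 1 with both, all of them higher. IRF1, a transcription factor induced by interferon, changed by 0.29 with depletion under mock, 0.40 with TSA and 0.04 with both, and NLRC5, the class I transactivator, by 0.61, 0.50 and 0.51, none of them called. RFXAP, a subunit of the factor that binds the X box, rose with depletion under mock by 1.39, from −2.48 and −2.35 to −1.01 and −1.05. JAK1 and IFNAR1, which signal downstream of interferons, rose with TSA in siCONT cells by 1.08 and 1.45. SOCS1, an inhibitor of interferon signalling, was not well above background on siCONT mock arrays and was at least 5.44-fold higher with depletion plus TSA. It was tested there only through the group where it was brighter, so its direction was fixed by the filter. Of these calls, the one of SOCS1 with depletion plus TSA held with siCONT as 1 sample.

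Interferon-stimulated genes were called in part, and not in the same direction. Of 22 genes, 14 or 15 could be tested. With UHRF1 depletion under mock 1 of 15 rose, IFI27, by 2.85, from −2.37 and −3.10 to 0.18 and 0.05. With TSA in siCONT cells 1 of 14 rose, IFI6 (1.82), and 2 fell, OAS1 (by 1.90) and OASL (by 1.67). With depletion plus TSA 6 of 14 rose and 1 fell, and IFI27 (4.63), IFI6 (2.67), OAS1 (−1.66) and IFIT1 (1.48) changed most. The list medians were 0.17, 0.23 and 0.97. With siCONT as 1 sample 0, 0 and 4 genes were called, the last being ISG15, IFI27, IFI6 and UBE2L6. The interferon genes IFNG and IFNB1 were not above background on any array, 4 of the 7 interferon ligands sought had no probe under that name, and IFNE, which was close to background, is given no fold.

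Other class I and class I-like molecules were examined next. HLA-G and, further on, CD274 are on these lists but are named here after their values were seen. The single HLA-G probe, of a non-classical heavy chain, changed by −0.38 with depletion under mock and by −0.26 with TSA in siCONT cells. MICA and MICB, stress ligands of the activating receptor NKG2D, fell with UHRF1 depletion under mock. MICA went from 4.88 and 4.87 to 3.68 and 3.88, a fall by 1.10 (adjusted p 0.0106), and MICB from 2.66 and 2.72 to 1.49 and 1.51, a fall by 1.19 (adjusted p 0.0106). With siCONT as 1 sample their adjusted p values were 0.346 and 0.319. Another MICA probe, A_33_P3368452, changed by −0.97 and was not called, while another MICB probe, A_24_P169688, was called at −1.31. With depletion under TSA the changes were −0.18 for MICA and −0.83 for MICB, neither of them called. With depletion plus TSA against siCONT mock they were 0.17 and −0.79, also not called. MICA and MICB were the only genes of the list called with depletion under mock, of 12 tested.

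With TSA in siCONT cells 3 of 13 genes of that list rose and 1 fell, and with depletion plus TSA 4 of 14 rose and 2 fell. ULBP2 and ULBP1, further NKG2D ligands, rose with TSA by 2.24 and 1.51, and RAET1E, of the same family, by 1.38. HFE, a class I-like regulator of iron uptake, fell by 1.14 with TSA and by 1.61 with both. ULBP2 and RAET1E were also higher with both, by 2.21 and 2.04. AZGP1, a soluble class I-like protein, was not well above background on siCONT mock arrays and was at least 3.74-fold higher with both. As for SOCS1, its direction was fixed by the filter. FCGRT was the fourth gene that rose with both, and MR1 the second that fell. With siCONT as 1 sample no gene of the list was called with TSA in siCONT cells, and ULBP2, AZGP1 and FCGRT were called with both. The list medians were −0.29 with depletion, 0.04 with TSA and 0.12 with both.

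Class II genes, which serve the display of extracellular peptides, were detected in part. Of 15 genes 5 were above background on all 8 arrays, and 6 were above background on none of the arrays, among them HLA-DRA and CD74. HLA-DMB, which edits class II peptides, rose with depletion under mock by 1.46 and with TSA by 1.22, from −0.17 and −0.04 to 1.09 and 1.61 with the siRNAs and to 1.12 and 1.10 with TSA. HLA-DPB1 was at least 2.36-fold higher with TSA in siCONT cells and at least 5.25-fold higher with both. With both agents 5 of 9 tested genes were called higher, against 25.6% of all probes called in either direction. Besides HLA-DPB1 these were HLA-DMB (1.88), HLA-DQB1 (at least 2.53-fold), HLA-DOA (at least 1.45-fold) and HLA-DOB. All but HLA-DMB were not well above background on siCONT mock arrays and were tested only through the group where they were brighter. Their direction was thus fixed by the filter, and the bound of HLA-DOA is below 2-fold. With siCONT as 1 sample all of these but HLA-DOB were called with both, and HLA-DPB1 with TSA in siCONT cells. Of the 6 inhibitory ligands on the array, 3 could be tested, and PVR rose by 1.00 with TSA in siCONT cells, a call that was not made with siCONT as 1 sample. CD274, which encodes PD-L1, was above background on 1 of the 8 arrays.

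Genes whose levels ran most like those of the members were sought by the root mean square difference of centred levels over 6 samples, among 9332 probes above background on all arrays with a range of at least 1. PSMB8 lay closest to TRIM10 (0.13), CA11 (0.13) and ACACA (0.14), whose ranges of 2.38 to 2.62 were near its own of 2.28. The brightest probes of the other members had ranges below 1, so that this limit itself kept near profiles out, and their nearest genes are not named. Within the set, HLA-C A_33_P3330109 and HLA-F A_33_P3379939 were the closest pair (0.06), followed by the HLA-B and HLA-C probes that overlap in sequence, A_33_P3424800 and A_33_P3424803 (0.06). TAP1 and PSMB9 lay 0.17 apart. These distances are descriptions over points that share arrays and controls.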

How the data were processed

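Total RNA of DLD1 cells was measured on 8 Agilent 1-colour arrays. Spot intensities were extracted and deposited by the authors with Agilent Feature Extraction 10.7 (per the labels and file headers), as background-subtracted processed signals. The value table deposited by the authors holds the same intensities, rounded and unscaled, and was used only as an alternative. Groups were taken from the labels. Signals of replicate spots were averaged, put on the log2 scale, and centred on the 75th percentile of the non-control probes of each array. limma 3.58.1 in R 4.3.3 was fitted to all 8 arrays with 4 group means (4 residual degrees of freedom), on the 24589 probes that both arrays of some group detected, with two-sided moderated tests and Benjamini-Hochberg adjustment over the probes tested in each comparison. Probes with an adjusted p under 0.05 and at least 2-fold change were called. Other scalings, filters and replicate blocks were run as alternatives, and so was a plain t-test with a 2-fold limit, called the methods' t-test because the study's statistical methods name t tests for continuous variables in general. The test behind its array results is not given in the sources used here.

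The genes and lists were chosen with earlier results of these data known. Of each list the called genes with the largest changes, up to 4 a comparison, were named, besides NLRC5, IRF1, TAPBP, PSMB10, PSMB5, PSMB6 and PSMB7 whatever they did. Every member probe was described, and a few genes of the lists are not reported here. Where a group was not well above background, folds are lower bounds against the dimmest detected signal. The fit was tested on simulated data. Probe positions are those of hg19 in the array files, and promoters are from RefSeq (GRCh38.p14). Depth does not apply to arrays, and their number limits the precision.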

Additional observations from a re-analysis of the deposited data

Results flagged for a closer look

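For 4 probes the effect in one group was above 0 and in the other below 0 on both arrays, each taken against the mean of its siCONT group or, for TSA in siUHRF1 cells, against the mock array of the same siRNA. The arrays themselves overlapped for PSMB8 under TSA and for HLA-B A_33_P3424800 in siCONT cells. The difference itself was tested by the interaction in limma, which none passed. For HLA-B A_33_P3424800, the TSA effect in siUHRF1 cells minus that in siCONT cells was 0.29 (adjusted p 0.362 in limma). For TAP2 A_33_P3214650, the same difference was −0.48 (adjusted p 0.108 in limma). For PSMB8, the effect of depletion with TSA less that with mock was −0.47 (adjusted p 0.282 in limma), and for PSMB9 it was 0.75 (adjusted p 0.0585 in limma).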

How the results depend on the processing

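Of the alternative values of single member probes, 1410 kept their direction and side of the threshold, 73 uncalled values moved, 7 became called and 5 lost their call, and no call was reversed. The number of member probes called with TSA in siCONT cells became 0 with siCONT as 1 sample. By the methods' t-test after Benjamini-Hochberg adjustment it was 1 with depletion plus TSA and 0 with TSA in UHRF1-depleted cells, where 2714 and 0 of all probes were called. Leaving out 1 array at a time gave 2 to 3 calls with TSA in UHRF1-depleted cells and 0 or 2, as reported, in the other comparisons. Without siUHRF1-2 under TSA, HLA-F A_33_P3379967 was called there at 2.01. It was also called with TSA in siCONT cells at 1.04 after normexp correction and at 1.23 by the methods' t-test. TAP1 was called with depletion plus TSA at −1.06 under median scaling. Deviations of the arrays correlated at 0.34 between the siUHRF1 groups, which share siRNAs, and between −0.06 and 0.07 otherwise. The siUHRF1 arrays are thus linked by siRNA across agents. The fit as reported leaves this link out, so the spread between siRNAs enters its error for TSA in UHRF1-depleted cells. With the replicate block 0, 2, 2, 0, 2 and 0 member probes were called, and the interaction gave 675 calls over all probes in place of 1203. A block within each siRNA arm called 3 member probes with TSA in either cells, HLA-F A_33_P3379967 among them, and 0 probes for the interaction. Calls over all probes fell after normexp correction to 301, 1708, 2639, 744, 2361 and 775 in the order depletion, TSA in siCONT cells, both, depletion under TSA, TSA in UHRF1-depleted cells and interaction. With siCONT as 1 sample they were 5, 362, 3660, 165, 4210 and 0, against 921, 4317, 6077, 1970, 4952 and 1203 as reported. Depletion under TSA gave 3001 under median scaling, and depletion gave 406 and the interaction 213 without the filter on dim probes. With only probes detected on all arrays, both agents gave 3881, depletion under TSA 1092 and TSA in UHRF1-depleted cells 3099. The methods' t-test gave 3286 with TSA in UHRF1-depleted cells at unadjusted p, and 0 after adjustment for either depletion comparison. Leaving out 1 array gave 88 (siCONT mock 2) to 1894 (siUHRF1-1 mock) calls with depletion, 451 (siCONT TSA 2) to 2304 with depletion under TSA, and 38 (siCONT mock 1) to 2838 (siUHRF1-2 mock) for the interaction. The causes were not tested.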
